A study of Homo sapiens with 8 samples.

Results

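The set described here holds 49 human genes of DNA replication and nucleotide synthesis, out of the 57992 genes in the Molm13 count table. They were chosen by symbol from a fixed list of the proteins that license, fire, unwind and copy replication origins and of the enzymes that make deoxynucleotides. All 49 were found once in the Molm13 table and, by the same gene identifier, in the THP1 table of 58174 genes, and all 49 passed the filter on low counts in both lines. Polyadenylated RNA was sequenced from Molm13 and THP1, human acute myeloid leukemia (AML) lines of monocytic type. The cells carried a control short hairpin RNA (shCtrl, genotype labelled WT) or a hairpin against PRMT9 (shPRMT9, genotype labelled PRMT9 knockdown), and all 8 libraries came from cells given doxycycline (Dox) to induce the hairpin, the controls included. Each of the 4 groups holds 2 libraries, numbered 1 and 2. The labels do not say whether the number marks a separate culture or a different hairpin, nor how long induction lasted. The THP1 library names also carry the letters OCI, while every other label gives THP1.

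The members act in sequence. In G1 phase the origin recognition complex (ORC1 to ORC6), CDC6 and CDT1 load the MCM2 to MCM7 ring onto DNA, and geminin (GMNN) blocks CDT1 once replication has begun. The kinase CDC7 with its activator DBF4 then helps CDC45, the GINS complex and MCM10 turn the loaded ring into a working helicase, RPA coats the exposed single strand, and polymerase alpha-primase lays the first primers. Polymerases delta and epsilon extend them on the PCNA clamp, which the RFC complex loads, and FEN1 and LIG1 join the lagging strand fragments. Ribonucleotide reductase (RRM1, RRM2), thymidylate synthase (TYMS), TK1, DUT and DCK supply or clean up the deoxynucleotide pool. Many of these genes are known to be switched on by E2F transcription factors as cells pass from G1 into S phase, so their RNA is usually high in dividing cells and low in resting ones.

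Library totals were 18720950 to 27356870 counts, and members held between 161 and 17799 counts per library. The knockdown was visible in the targeted gene. In RPKM (reads scaled to exon length and library size), PRMT9 stood at 4.04 and 3.67 in shCtrl and 0.545 and 0.654 in shPRMT9 in Molm13, and at 3.08 and 3.15 in shCtrl and 0.592 and 0.681 in shPRMT9 in THP1, with log2 fold changes of -2.68 and -2.29 and no overlap between groups. Of 11 monocytic AML markers, 10 exceeded 1 RPKM in Molm13, and 9 or 10 in THP1, where MEIS1 was at or near 0. B cell, T cell, erythroid and epithelial markers showed at most 1 gene above 1 RPKM per group. The summed level of the monocytic markers moved with the knockdown, from 508 and 510.1 to 795 and 803 RPKM in Molm13 and from 1258 and 1244 to 2036 and 1953 RPKM in THP1. Most of each sum was LYZ, whose mean went from 359 to 568 RPKM in Molm13 and from 1068 to 1745 in THP1. Mean MPO fell, from 17.3 to 11.7 and from 2.13 to 1.20, while the means of the other markers rose. The part of these marker changes in the results below was not tested.

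Promoter sequences show what many of these genes share. RefSeq promoters on GRCh38.p14, running from 250 bases before to 50 bases after the annotated start, were matched to 43 of the 49 members. There were 35116 promoters for 27305 symbols, and for a symbol with several only the first listed was searched. MCM4, MCM5, GINS4, POLD3, RPA2 and RPA3 were not matched. An E2F-type motif, counted as any of the letters TTTCCCGC, TTTGGCGC, TTTCGCGC or TTTGCCGC on either strand, was found in 19 of the 43 (44.2%), against 3.33% of all 27305 promoters. The CCAAT box (CCAAT, either strand) was found in 22 of the 43 (51.2%, against 35.7% of all promoters) and the GC box (GGGCGG, either strand) in 29 (67.4%, against 44.6%). All promoters include those of genes too low to be tested here. Of the genes tested in Molm13 with a promoter, 522 had the E2F-type motif and 8990 did not. For the other boxes no share of tested genes is given. The TTTCGCGC and TTTGGCGC forms can overlap on opposite strands, as they do in MCM6. The stretches below, all upstream of the RefSeq start, were chosen to set genes that fell strongly in Molm13 beside CDT1, which was not called there, and ORC3, which rose. The gene coordinates that came with the counts can start elsewhere. By those, the GINS2, CDT1 and ORC3 stretches and part of the TYMS stretch lie inside the gene. Each reads 5′ to 3′ on the strand of the gene, with the motif letters in capitals.
MCM6 (chr2:135876496-135876621, minus strand): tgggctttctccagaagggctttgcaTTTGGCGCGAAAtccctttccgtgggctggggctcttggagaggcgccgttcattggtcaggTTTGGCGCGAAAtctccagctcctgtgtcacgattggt
GINS2 (chr16:85688955-85689011, minus strand): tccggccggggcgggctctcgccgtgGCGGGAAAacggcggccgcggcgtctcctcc
PCNA (chr20:5126648-5126707, minus strand): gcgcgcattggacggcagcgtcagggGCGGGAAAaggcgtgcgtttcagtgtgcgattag
TYMS (chr18:657588-657647, plus strand): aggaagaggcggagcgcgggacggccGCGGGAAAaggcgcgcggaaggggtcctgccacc
CDT1 (chr16:88803728-88803787, plus strand): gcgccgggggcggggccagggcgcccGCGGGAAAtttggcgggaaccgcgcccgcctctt
ORC3 (chr6:87590097-87590134, plus strand): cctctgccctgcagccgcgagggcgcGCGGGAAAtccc

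In MCM6 the motif stands in 2 near-identical copies, each read on both strands. In GINS2, PCNA, TYMS, CDT1 and ORC3 the same letters GCGGGAAA occur once, so genes that fell and genes that did not carry the same motif.

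The first question is what PRMT9 knockdown did to these genes in Molm13. Most of the replication machinery fell. Counting a gene as called at an adjusted P below 0.05 (quasi-likelihood test of edgeR with Benjamini-Hochberg adjustment over 16446 genes), 44 of the 49 members were lower in shPRMT9, against 33.5% of all genes tested, and 2 were higher, against 33.4%. The exceptions were ORC3 and ORC4, which rose, and ORC2, CDT1 and PRIM2, which were not called. Of the 44, 31 also passed limits on size (1 or more libraries over 1 RPKM, and a fold above 1.5 or below 1/1.5), against 11.3% of all genes, and no member passed them upward, against 11.4% (also 0 by DESeq2, by limma-voom and at an unadjusted P below 0.05). The lower limit printed in the methods of the study is 0.67, slightly looser than 1/1.5, and at 0.67 the count was again 31, against 11.5% of all genes. The median log2 fold change of the members was -0.73, with a range from -1.79 (MCM10) to 0.46 (ORC4), while the median of all genes tested was close to 0. Both knockdown libraries lay below both controls for 44 members, against 40.8% of genes, and above both for 3 members, against 41.1%. The members together took 0.625 and 0.617% of all counts in the control libraries and 0.364 and 0.367% after knockdown. In bulk RNA, fewer cells in S phase and less of each RNA per cell cannot be told apart.

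In THP1 the same genes moved little and in both directions. Here 17 members were lower, against 18.6% of 16294 genes tested, and 10 were higher, against 19%. At a fold below 1/1.5 no member passed the limits on size downward, against 2.39% of genes, and above 1.5 none passed upward, against 3.83%, and these counts were also 0 at an unadjusted P below 0.05, by DESeq2 and by limma-voom. At the lower limit of 0.67 printed by the study, 1 member passed, against 2.47% of genes. This was DCK, at 66.8% of control, which lies between the 2 limits. The median log2 fold change was -0.05, with a range from -0.58 (DCK) to 0.40 (MCM5). Knockdown libraries lay below both controls for 27 members, against 33% of genes, and above both for 14, against 33%. The members took 0.620 and 0.619% of counts in the THP1 controls and 0.603 and 0.602% after knockdown. Under the 15 alternative settings, 43 of the 44 lower calls in Molm13 held throughout, RPA2 being the exception, but only 11 of the 17 lower and 7 of the 10 higher calls in THP1 did. The THP1 calls lost in at least 1 setting were CDC45 (lost in 8), FEN1 and RFC3 (5 each), GINS3 (4), POLA1 and POLD1 (3 each), ORC1 and PRIM2 (2 each) and GINS1 (1).

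**Figure D1:**
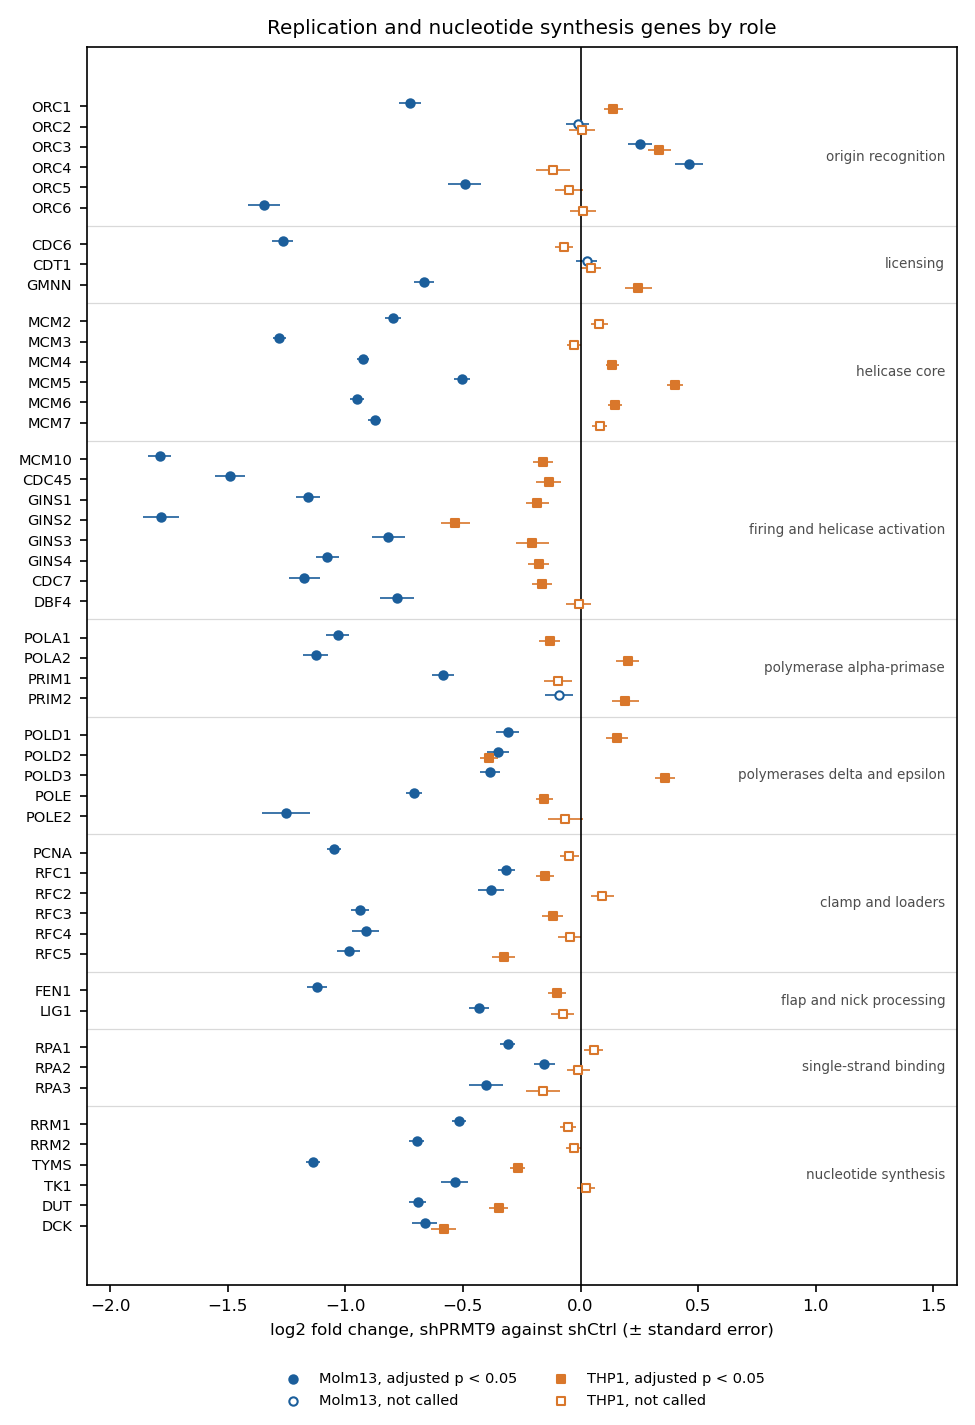
Log2 fold change of each of the 49 genes in shPRMT9 against shCtrl, grouped by role, in Molm13 (circles) and THP1 (squares). Bars are standard errors and filled symbols mark adjusted P below 0.05. Molm13 values lie left of 0 for nearly all genes, down to -1.79 for MCM10, while THP1 values lie between -0.58 and 0.40.

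The strongest falls in Molm13 were among the factors that fire origins and activate the helicase. All 8 members of this group were called lower, against 33.5% of all genes tested, with a median log2 fold change of -1.17. Their summed RPKM after knockdown was 40.4 and 41.01% of the control mean. MCM10 (chr10:13161554-13211104, plus strand, hg38), which helps the assembled helicase start to move, had an RPKM of 19.4 and 19.2 in shCtrl and 5.71 and 5.48 in shPRMT9. The knockdown libraries held 28.9% of the control level, and the log2 fold change was -1.79 ± 0.048 (adjusted P = 1.5e-31), where ± gives the standard error. GINS2, a subunit of the GINS ring that binds the MCM helicase, stood at 11.9 and 11.2 in shCtrl and 3.26 and 3.45 in shPRMT9, and fell by 1.78 ± 0.077 (adjusted P = 3.48e-24) on the log2 scale. CDC45, the third component of the active helicase, stood at 18.4 and 17.7 in shCtrl and 6.17 and 6.65 in shPRMT9 and fell by 1.49 ± 0.064 (adjusted P = 3.52e-24). The other 3 GINS subunits fell less than GINS2. GINS3, the lowest of the group in RPKM averaged over the 8 libraries (the sense of highest and lowest within a group from here on), stood at 6.42 and 6.35 in shCtrl and 3.76 and 3.50 in shPRMT9 and fell by 0.82 ± 0.070 (adjusted P = 6e-14), and GINS1 and GINS4 fell by 1.16 and 1.08. The kinase CDC7, the highest of the group in that average, stood at 12.8 and 13.8 in shCtrl and 5.62 and 6.10 in shPRMT9 and fell by 1.17 ± 0.065 (adjusted P = 2.62e-20), and its activator DBF4 fell by 0.78.

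In THP1 the firing group was lower too, by smaller amounts. There 7 of the 8 were called lower, against 18.6% of all genes tested, and 5 of the 8 by DESeq2, which did not call CDC45 or GINS3. The group had a median of -0.17 and a summed RPKM of 88.5 and 87.5% of the control mean. GINS2 changed most, from 12.6 and 12.5 in shCtrl to 8.65 and 8.73 in shPRMT9, with no overlap between groups, and fell by 0.53 ± 0.060 (adjusted P = 3.5e-08). MCM10 stood at 17.02 and 17.1 in shCtrl and 15.2 and 15.3 in shPRMT9 in THP1 and fell by 0.16 ± 0.042 (adjusted P = 0.00317). CDC45 at 18.1 and 17.5 in shCtrl and 16.3 and 16.1 in shPRMT9 fell by 0.14 ± 0.053 (adjusted P = 0.0451), a call lost in 8 of 15 alternatives, among them each that left out 1 THP1 library. CDC7 at 23.98 and 24.1 in shCtrl and 21.4 and 21.5 in shPRMT9 fell by 0.16 ± 0.044 (adjusted P = 0.00347), and GINS3 at 5.20 and 5.27 in shCtrl and 4.34 and 4.75 in shPRMT9 fell by 0.20 ± 0.070 (adjusted P = 0.0218). GINS1 and GINS4 fell by 0.18 and 0.18, and DBF4, with a log2 fold change of -0.01, was not called. GINS2 shares its locus with GSE1 on the other strand, whose counts were 880% of those of GINS2 in Molm13 and 841% in THP1 and whose log2 fold changes were 0.16 and -0.04. DBF4 shares its locus in the same way with SLC25A40, at 129% and 116% of its counts and log2 fold changes of -0.33 and 0.17. The strand setting of the counting is not given in the sources used here.

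The helicase core fell in Molm13 but not in THP1. In Molm13 all 6 MCM genes were called lower, against 33.5% of all genes tested, with a median of -0.90. Their summed RPKM came to 51.03 and 51.6% of control. MCM3 (chr6:52264009-52284881, minus strand), the member with the highest RPKM of the group, stood at 112 and 111 in shCtrl and 45.6 and 46.2 in shPRMT9 and fell by 1.28 ± 0.028 (adjusted P = 3.31e-35). MCM4 stood at 109 and 106 in shCtrl and 56.2 and 56.9 in shPRMT9 and fell by 0.93 ± 0.024 (adjusted P = 5.64e-32), and MCM6 at 75.6 and 74.4 in shCtrl and 37.5 and 40.1 in shPRMT9 fell by 0.95 ± 0.031 (adjusted P = 8.66e-29). After knockdown these stood at 41.2%, 52.7% and 51.8% of the control level. MCM7 stood at 82.6 and 81.99 in shCtrl and 45.6 and 44.2 in shPRMT9 and fell by 0.87 ± 0.028 (adjusted P = 4.57e-29), and MCM2 at 37.8 and 39.7 in shCtrl and 22.4 and 22.1 in shPRMT9 fell by 0.80 ± 0.034 (adjusted P = 2.83e-24). MCM5, the lowest in RPKM, changed least, from 22.8 and 23.5 in shCtrl to 16.3 and 16.4 in shPRMT9, and fell by 0.50 ± 0.033 (adjusted P = 1.32e-17).

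In THP1 none of the 6 was called lower by edgeR, against 18.6% of all genes tested, nor by DESeq2, limma-voom or at an unadjusted P below 0.05. By edgeR 3 were called higher, against 19% of all genes. On that side DESeq2 called 3 and limma-voom 4, and 5 had an unadjusted P below 0.05. With exon length and GC correction, chosen after seeing the data, MCM3 was called lower at a log2 fold change of -0.09. MCM5 rose most, from 27.3 and 26.7 in shCtrl to 35.6 and 35.6 in shPRMT9, a log2 fold change of 0.40 ± 0.033 (adjusted P = 8.71e-11), with both knockdown libraries above both controls. MCM4 rose by 0.13 ± 0.029 (adjusted P = 0.000388) from 85.3 and 86.004 in shCtrl to 94.2 and 93.9 in shPRMT9, and MCM6 rose by 0.15 ± 0.032 (adjusted P = 0.000488) from 64.7 and 63.7 in shCtrl to 71.1 and 70.96 in shPRMT9. MCM7 at 77.2 and 72.6 in shCtrl and 79.4 and 79.1 in shPRMT9, at a log2 fold change of 0.08 ± 0.033 (adjusted P = 0.0534), and MCM2 at 42.9 and 41.5 in shCtrl and 43.2 and 46.1 in shPRMT9, with 0.08 ± 0.036 (adjusted P = 0.0892), were not called. MCM3 stood at 182 and 175 in shCtrl and 175 and 175 in shPRMT9, at a log2 fold change of -0.03 ± 0.029 (adjusted P = 0.474). Within the ring, whose subunits are present in equal number in the assembled protein, RNA levels per exon length were unequal. The ratio of the highest to the lowest mean RPKM was 4.81 in the Molm13 controls and 3.46 after knockdown, and 6.62 and 4.91 in THP1.

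Origin recognition genes did not move as a block. In Molm13, ORC6 fell by 1.35 ± 0.069 (adjusted P = 2.21e-21), from 9.28 and 9.78 in shCtrl to 3.77 and 3.73 in shPRMT9, the fourth largest fall of all members. ORC1, which is degraded and remade through the cycle and had the highest RPKM of the complex, stood at 25.5 and 26.4 in shCtrl and 15.4 and 15.98 in shPRMT9 and fell by 0.73 ± 0.047 (adjusted P = 4.84e-18), and ORC5 fell by 0.49. ORC2 had a log2 fold change of -0.01 ± 0.049 (adjusted P = 0.836) and was not called. ORC3 rose from 11.6 and 12.2 in shCtrl to 14.2 and 14.1 in shPRMT9, by 0.25 ± 0.052 (adjusted P = 3.96e-05), and ORC4, the lowest in RPKM, rose from 3.40 and 3.32 in shCtrl to 4.64 and 4.62 in shPRMT9, by 0.46 ± 0.059 (adjusted P = 4.43e-09). ORC4 overlaps MBD5 and ACVR2A on the other strand, whose counts were 48.1% and 13.4% of those of ORC4 in Molm13 and whose log2 fold changes there were 0.25 and 0.36. In THP1 their counts were 87.2% and 26.4% of those of ORC4, with log2 fold changes of -0.26 and 0.91.

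In THP1, ORC3 rose again, from 15.6 and 16.3 in shCtrl to 20.3 and 19.9 in shPRMT9, by 0.33 ± 0.048 (adjusted P = 1.81e-06), and its change did not differ detectably between the lines, by 0.09 ± 0.072 (adjusted P = 0.324). ORC1 at 33.2 and 32.4 in shCtrl and 35.9 and 36.2 in shPRMT9 rose by 0.14 ± 0.040 (adjusted P = 0.00676). ORC4 stood at 3.01 and 3.15 in shCtrl and 3.01 and 2.67 in shPRMT9, at a log2 fold change of -0.12 ± 0.071 (adjusted P = 0.205), and ORC6 at 10.5 and 10.7 in shCtrl and 10.9 and 10.5 in shPRMT9, with 0.01 ± 0.054 (adjusted P = 0.905). ORC2, ORC4, ORC5 and ORC6 were not called. The ratio of ORC1 to ORC2 RPKM fell in Molm13 from 2.44 and 2.29 in the controls to 1.37 and 1.51, and stood at 4.55 and 4.29 in the THP1 controls and 4.79 and 4.89 after knockdown.

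The 3 licensing genes took different courses. CDC6, the loading factor, fell by 1.27 ± 0.046 (adjusted P = 8.1e-27) in Molm13, from 19.4 and 18.9 in shCtrl to 7.96 and 7.96 in shPRMT9. CDT1, its partner in loading, stood at 20.2 and 20.6 in shCtrl and 20.8 and 20.8 in shPRMT9 and was not called, at a log2 fold change of 0.03 ± 0.045 (adjusted P = 0.614). With counts corrected for exon length and GC content, a setting added after the data were seen, CDT1 in Molm13 fell by 0.24. Geminin, the inhibitor of CDT1 and the highest in RPKM of the group, stood at 42.2 and 44.2 in shCtrl and 27.8 and 26.7 in shPRMT9 and fell by 0.66 ± 0.042 (adjusted P = 2.52e-18). The ratio of GMNN to CDT1 RPKM went from 2.09 and 2.14 to 1.33 and 1.29 in Molm13.

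In THP1, geminin rose from 13.8 and 14.2 in shCtrl to 16.5 and 16.8 in shPRMT9, by 0.25 ± 0.058 (adjusted P = 0.00122), and the ratio to CDT1 went from 0.465 and 0.516 to 0.567 and 0.560. Neither of the other licensing genes was called. CDC6 stood at 22.4 and 22.7 in shCtrl and 21.3 and 21.7 in shPRMT9, a change on the log2 scale of -0.07 ± 0.039 (adjusted P = 0.173). CDT1 stood at 29.7 and 27.6 in shCtrl and 29.04 and 29.9 in shPRMT9, a change of 0.04 ± 0.044 (adjusted P = 0.469).

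**Figure D2:**
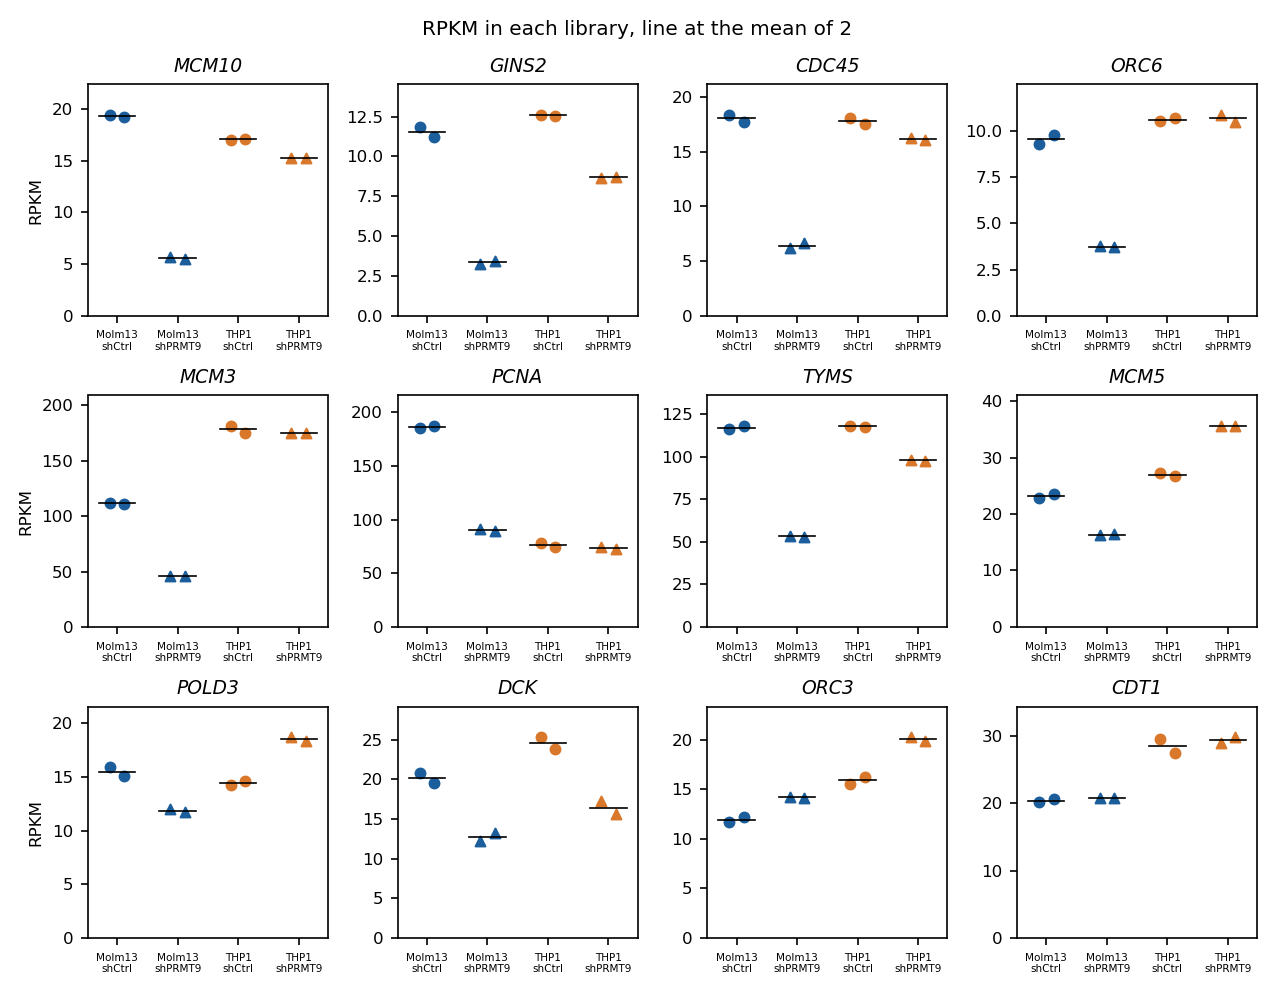
RPKM of 12 members in each of the 8 libraries, circles for shCtrl and triangles for shPRMT9, with a line at the mean of each pair and every axis starting at 0. MCM10, GINS2, CDC45, TYMS and DCK are called lower in both lines, ORC6, MCM3 and PCNA in Molm13 alone, MCM5 and POLD3 drop in Molm13 and rise in THP1, ORC3 rises in both lines, and CDT1 shows no called change.

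Polymerase alpha-primase, which starts every new strand, was lower in Molm13 in 3 of 4 subunits, against 33.5% of all genes tested. POLA2 and POLA1 fell by 1.13 ± 0.053 (adjusted P = 1.03e-22) and 1.03 ± 0.048 (adjusted P = 6.37e-23). The primase catalytic subunit PRIM1, highest in RPKM of the group, stood at 31.998 and 31.3 in shCtrl and 21.02 and 21.1 in shPRMT9 and fell by 0.59 ± 0.046 (adjusted P = 4.29e-15), whereas its partner PRIM2, the lowest, stood at 8.19 and 9.23 in shCtrl and 8.15 and 8.20 in shPRMT9 at a log2 fold change of -0.09 ± 0.060 (adjusted P = 0.18), and its groups overlapped. Reads of PRIM1 may be shared with NACA, which overlaps it on the same strand and held 1697% of its counts in Molm13 and 881% in THP1, with log2 fold changes of 0.23 and -0.11. The pseudogene EEF1B2P3, inside POLA1 on the other strand, held 229.6% of the counts of POLA1 in Molm13 and 1.22% in THP1. In THP1, POLA1 fell by 0.13 ± 0.045 (adjusted P = 0.0228), POLA2 rose by 0.20 ± 0.048 (adjusted P = 0.00142), and PRIM2 rose from 8.22 and 8.11 in shCtrl to 9.41 and 9.23 in shPRMT9, by 0.19 ± 0.056 (adjusted P = 0.00797). PRIM1, at 20.02 and 18.8 in shCtrl and 17.3 and 19.04 in shPRMT9, had a log2 fold change of -0.10 ± 0.058 (adjusted P = 0.207).

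All 5 subunits of polymerases delta and epsilon were called lower in Molm13, against 33.5% of all genes tested, though the delta subunits fell by little. POLE2, the second subunit of the leading-strand polymerase epsilon and the lowest of the group in RPKM, stood at 9.02 and 7.12 in shCtrl and 2.91 and 3.83 in shPRMT9 and fell by 1.25 ± 0.10 (adjusted P = 1.1e-14), with the widest standard error of any member in Molm13. POLE, the catalytic subunit, fell by 0.71 ± 0.033 (adjusted P = 8.28e-23). POLD2, which was highest in RPKM, stood at 18.7 and 19.5 in shCtrl and 15.3 and 14.6 in shPRMT9 and fell by 0.35 ± 0.047 (adjusted P = 1.28e-08). POLD3 stood at 15.9 and 15.1 in shCtrl and 12.1 and 11.7 in shPRMT9 and fell by 0.39 ± 0.044 (adjusted P = 2.28e-10), and POLD1 fell by 0.31.

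The delta subunits went opposite ways in THP1. POLD2 stood at 46.1 and 44.6 in shCtrl and 34.4 and 34.8 in shPRMT9 and fell by 0.39 ± 0.037 (adjusted P = 1.34e-09), and the difference between lines was not called, at -0.03 ± 0.060 (adjusted P = 0.807). POLD3 stood at 14.3 and 14.6 in shCtrl and 18.8 and 18.3 in shPRMT9 and rose by 0.36 ± 0.042 (adjusted P = 7.57e-08), and POLD1 rose by 0.15 ± 0.047 (adjusted P = 0.01). POLE fell by 0.16 ± 0.036 (adjusted P = 0.000987) and POLE2, at 7.30 and 7.57 in shCtrl and 7.20 and 7.03 in shPRMT9, was not called, with -0.06 ± 0.072 (adjusted P = 0.534).

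PCNA and the clamp loader fell as a group in Molm13, with all 6 lower, against 33.5% of all genes tested. Their median was -0.93 and their summed RPKM 53.3 and 53.3% of control. PCNA (chr20:5114953-5126626, minus strand), the clamp that holds the polymerases on DNA and the highest member in RPKM in the Molm13 controls, stood at 186 and 188 in shCtrl and 91.1 and 89.4 in shPRMT9 and fell by 1.05 ± 0.030 (adjusted P = 1.59e-30). RFC5 stood at 28.8 and 27.0 in shCtrl and 14.5 and 13.7 in shPRMT9 and fell by 0.99 ± 0.048 (adjusted P = 2.66e-22), and RFC4, the lowest in RPKM, stood at 18.6 and 18.5 in shCtrl and 9.32 and 10.3 in shPRMT9 and fell by 0.91 ± 0.057 (adjusted P = 2.4e-18). RFC3 fell by 0.94. RFC2 and the large subunit RFC1 fell less, by 0.38 and 0.32. RFC4 overlaps EIF4A2 on the other strand, which held 959% of its counts in Molm13 and 520.1% in THP1, with log2 fold changes of -0.0039 and 0.07. RFC5 overlaps WSB2, at 119% and 86.1% of its counts and log2 fold changes of -0.60 and 0.07.

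PCNA in THP1 stood at 77.9 and 74.3 in shCtrl and 74.3 and 72.8 in shPRMT9, with overlapping groups and a log2 fold change of -0.05 ± 0.041 (adjusted P = 0.397). In all, 3 of the 6 genes were called lower in THP1, against 18.6% of all genes tested, and 2 by DESeq2, which did not call RFC3. RFC5 fell most, by 0.33 ± 0.049 (adjusted P = 3.99e-06), from 21.05 and 20.5 in shCtrl to 16.3 and 16.8 in shPRMT9. RFC1 and RFC3 fell by 0.15 and 0.12. RFC4, at 20.02 and 20.8 in shCtrl and 20.02 and 19.5 in shPRMT9, had a log2 fold change of -0.05 ± 0.049 (adjusted P = 0.503), and RFC2 one of 0.09, and neither was called.

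Of the genes that finish the lagging strand, FEN1, the flap nuclease, stood at 44.3 and 43.8 in shCtrl and 20.3 and 20.2 in shPRMT9 in Molm13 and fell by 1.12 ± 0.043 (adjusted P = 6.43e-26). LIG1, the ligase, stood at 12.8 and 13.4 in shCtrl and 9.79 and 9.62 in shPRMT9 and fell by 0.43 ± 0.044 (adjusted P = 7.84e-12). FEN1 overlaps FADS2 on the same strand, with 50.4% of its counts in Molm13 and 10.3% in THP1 and log2 fold changes of 0.43 and -2.12. It also overlaps TMEM258 on the other strand, with 61.8% and 30.3% of its counts and log2 fold changes of -0.16 and -0.05. In THP1, FEN1 at 51.02 and 49.4 in shCtrl and 47.4 and 46.3 in shPRMT9 fell by 0.10 ± 0.039 (adjusted P = 0.0443), a call lost in 5 of 15 alternatives (adjusted P = 0.174 by DESeq2 and 0.0747 with the replicate block), and LIG1 at 10.4 and 10.1 in shCtrl and 9.61 and 9.86 in shPRMT9 was not called, with -0.08 ± 0.047 (adjusted P = 0.219). The RPA genes had the smallest drop in summed RPKM of all groups in Molm13, though by the median log2 fold change origin recognition (-0.25) moved less than they did (-0.31). RPA2, the highest in RPKM, stood at 41.2 and 38.5 in shCtrl and 36.2 and 35.4 in shPRMT9 and fell by 0.16 ± 0.044 (adjusted P = 0.00202), a call that DESeq2 did not make (adjusted P = 0.0524), and RPA3, the lowest, stood at 8.16 and 8.29 in shCtrl and 6.51 and 5.97 in shPRMT9 and fell by 0.40 ± 0.072 (adjusted P = 4.46e-06). RPA3 overlaps UMAD1 on the other strand, at 83.1% and 56.7% of its counts and log2 fold changes of 0.39 and -0.38. RPA1, the large DNA-binding subunit, fell by 0.31 ± 0.031 (adjusted P = 6.39e-12). None of the RPA genes was called in THP1 by edgeR, DESeq2 or limma-voom, and 1 had an unadjusted P below 0.05. There RPA2 stood at 30.7 and 30.9 in shCtrl and 30.3 and 30.9 in shPRMT9 and RPA3 at 8.35 and 8.33 in shCtrl and 7.92 and 7.01 in shPRMT9, with log2 fold changes of -0.01 ± 0.048 (adjusted P = 0.898) and -0.16 ± 0.071 (adjusted P = 0.0798).

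All 6 genes of deoxynucleotide supply were called lower in Molm13, against 33.5% of all genes tested. Their summed RPKM was 57.6 and 58.2% of control. TYMS (chr18:657604-673578, plus strand), which makes thymidylate and is the target of fluorouracil, stood at 116 and 118 in shCtrl and 53.3 and 53.2 in shPRMT9 and fell by 1.14 ± 0.030 (adjusted P = 5.62e-32). DUT, which removes dUTP, stood at 38.5 and 38.2 in shCtrl and 24.01 and 23.5 in shPRMT9 and fell by 0.69 ± 0.037 (adjusted P = 6.72e-21). DCK, the salvage kinase that also activates cytarabine, was the lowest of the group in RPKM, at 20.8 and 19.6 in shCtrl and 12.2 and 13.2 in shPRMT9, and fell by 0.66 ± 0.052 (adjusted P = 4.14e-15). The reductase subunits RRM2 and RRM1 fell by 0.70 and 0.52, and TK1, the cytosolic thymidine kinase, by 0.53. The ratio of RRM2 to RRM1 RPKM was 0.889 and 0.898 in the controls and 0.773 and 0.805 after knockdown.

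DCK, DUT and TYMS also fell in THP1, where the summed RPKM of the 6 genes was 89.8 and 88.7% of control. DCK (chr4:70992538-71030914, plus strand) had the largest change of any member in that line, from 25.4 and 23.9 in shCtrl to 17.2 and 15.6 in shPRMT9, and fell by 0.58 ± 0.052 (adjusted P = 4.11e-10). The difference between lines was not called, at 0.09 ± 0.075 (adjusted P = 0.345). DUT stood at 38.1 and 36.1 in shCtrl and 29.4 and 28.9 in shPRMT9 and fell by 0.35 ± 0.040 (adjusted P = 4.93e-08), and TYMS at 118 and 118 in shCtrl and 98.3 and 97.7 in shPRMT9 fell by 0.27 ± 0.032 (adjusted P = 1.01e-07). RRM1, RRM2 and TK1 were not called in THP1, with log2 fold changes of -0.05, -0.03 and 0.02. DCK shares its strand and locus with MOB1B, which held 101% of its counts in Molm13 and 90.5% in THP1 and had log2 fold changes of -0.97 and -0.27. TYMS overlaps ENOSF1 on the other strand, with 37.9% and 19.8% of its counts and log2 fold changes of 0.16 and -0.02.

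**Figure D3:**
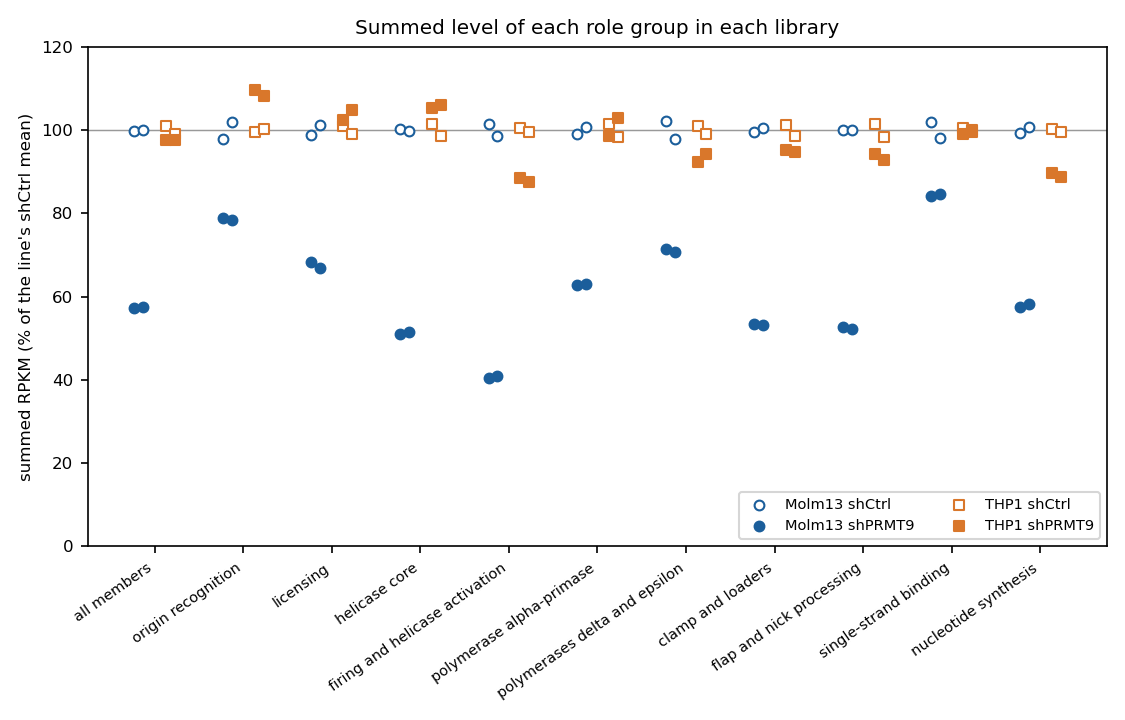
Summed RPKM of each role group in every library as a percentage of the mean of the 2 shCtrl libraries of that line, open symbols for shCtrl and filled for shPRMT9, on an axis that starts at 0. The Molm13 knockdown libraries sit lowest for firing and helicase activation, at 40.4 and 41.01%, and highest for single-strand binding, at 84.2 and 84.6%, while the THP1 libraries all sit between 87.5 and 110%.

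Summed over roles, the knockdown libraries of Molm13 reached 57.3 and 57.5% of the control RPKM over all members, and those of THP1 97.6 and 97.7%. Besides the groups already given, the Molm13 sums were 78.8 and 78.3% for origin recognition, 68.3 and 67.01% for licensing, 62.8 and 63.1% for polymerase alpha-primase, 71.4 and 70.7% for polymerases delta and epsilon and 52.7 and 52.2% for FEN1 and LIG1. In THP1 the sums ended below both controls for firing, polymerases delta and epsilon, the clamp and its loaders, FEN1 and LIG1, and nucleotide synthesis. They ended above both controls for origin recognition, licensing and the helicase core.

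The second question is whether the response differed between the lines. A fit of all 8 libraries over 19288 genes tested the difference of the log2 fold changes directly, THP1 minus Molm13. It was called for 44 members, of which 43 were more positive in THP1, against 22.8% of all genes tested, and 1 was more negative (ORC4), against 19.4%. The median difference was 0.78 over the members and 0.03 over all genes tested. The smallest adjusted P values belonged to MCM genes. The difference was 1.26 ± 0.040 for MCM3 (adjusted P = 1.33e-46), 1.07 ± 0.038 for MCM4 (adjusted P = 2.27e-43) and 1.11 ± 0.045 for MCM6 (adjusted P = 4.25e-39). MCM10 had the largest difference, 1.64 ± 0.066 (adjusted P = 4.25e-39), and that of MCM7 was 0.97 ± 0.043 (adjusted P = 1.88e-36). ORC4 went the other way, by -0.57 ± 0.095 (adjusted P = 3.05e-07). The 5 members without a called difference were ORC2, ORC3, CDT1, POLD2 and DCK.

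Sorted by their calls in the lines, 17 members were lower in both, 8 were lower in Molm13 and higher in THP1 (ORC1, GMNN, MCM4, MCM5, MCM6, POLA2, POLD1 and POLD3), and 19 were lower in Molm13 and not called in THP1. ORC3 was higher in both, ORC4 higher in Molm13 alone, and PRIM2 was called only in THP1. With the exon length correction PRIM2 was also called lower in Molm13, at a log2 fold change of -0.18. DESeq2 did not call PRIM2 in THP1 (adjusted P = 0.0743). ORC2 and CDT1 were called in neither. The share of all genes in each of these joint patterns is not given here, so the counts describe the members alone. The 17 lower in both held 7 of the 8 firing genes, namely MCM10, CDC45, GINS1 to GINS4 and CDC7, together with POLA1, POLD2, POLE, RFC1, RFC3, RFC5, FEN1, TYMS, DUT and DCK. For CDC45, GINS1, GINS3, POLA1, RFC3 and FEN1 the THP1 call did not hold in every alternative. Over the 49 members the log2 fold changes of the lines had a Pearson r of 0.346 and a Spearman rho of 0.346, and over the 13476 genes tested in both lines the Pearson r was 0.295. Genes of one library share depth and composition, so these values are a description.

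**Figure D4:**
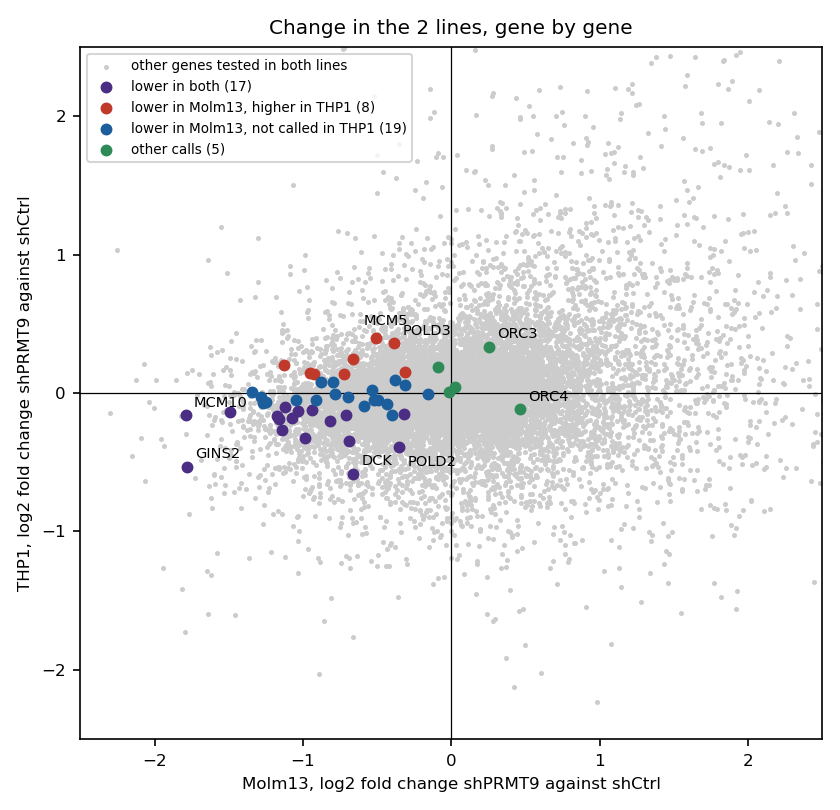
Log2 fold change in THP1 against that in Molm13 for each gene, with the 49 members coloured by their calls, and the 13476 genes tested in both lines in grey, of which 126 lie outside the axes. The members form a flat band, spread from -1.79 to 0.46 along the Molm13 axis and from -0.58 to 0.40 along the THP1 axis.

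Control levels of the members were alike in order in the lines, with a Spearman rho of 0.906 for mean RPKM over the 49 genes. The largest gaps were POLD2 and TK1, at 2.38 and 2.34 times the Molm13 level in THP1, and GMNN and PCNA, at 0.324 and 0.407 times. The 2 tables were counted and normalized separately, and they treat pseudogenes differently. Of 9 members with same-named pseudogenes, 7 had pseudogene counts above 1% of their own in Molm13 and 0 in THP1. For DBF4 the pseudogene held 31.1% of the counts of the gene in Molm13 and 0.187% in THP1, for DUT 11.6% and 0.0949%, for RPA2 10.8% and 0%, and for PCNA 7.54% and 0.0527%. How reads that match several places were counted is not given in the sources used here, so levels of these genes cannot be set against each other across the tables beyond this margin. With pseudogene counts added to the member, a setting added after the data were seen, 44 members were lower and 2 higher in Molm13, 17 lower and 10 higher in THP1, and the difference was called for 44.

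The motif in the promoter did not sort the members cleanly. In Molm13 the median log2 fold change was -0.95 for the 19 members with an E2F-type motif and -0.63 for the 24 without, and the sets ran from -1.78 to 0.25 and from -1.79 to 0.46. Among all tested genes with a promoter, the medians were -0.16 for 522 genes with the motif and -0.0014 for 8990 without. In THP1 the medians were -0.07 and -0.05 for the members and -0.01 and -0.0041 for 556 and 9926 tested genes. MCM10, CDC45 and ORC6, among the strongest falls, held none of these letters in the window searched, and any other annotated start was not searched.

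**Figure D5:**
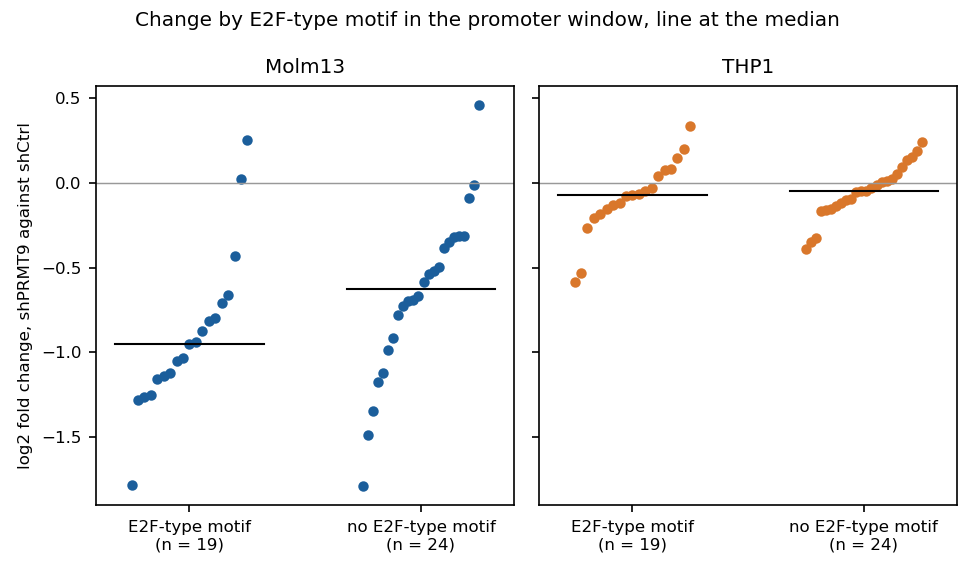
Log2 fold change of the 43 members with a matched promoter, split by whether an E2F-type motif stands in the window, with a line at the median, for Molm13 (left) and THP1 (right). The 2 sets overlap over most of their range in both lines.

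Other genes of the same pathways were read from the same fits, where 33.5% of all genes tested were lower and 33.4% higher in Molm13, and 18.6% and 19% in THP1. Of 25 further replisome and chromatin assembly genes, 23 were lower and 2 higher in Molm13, with a median of -0.89, and 8 were lower and 6 higher in THP1, nearer to those shares, with a median of -0.05. CLSPN, a checkpoint mediator at the fork, and DSCC1, part of an alternative clamp loader, had the largest changes of this list in Molm13, with log2 fold changes of -1.53 ± 0.049 (adjusted P = 9.76e-29) and -1.49 ± 0.078 (adjusted P = 4.96e-21). CLSPN stood at 18.9 and 20.5 in shCtrl and 6.62 and 7.001 in shPRMT9 and DSCC1 at 11.8 and 12.01 in shCtrl and 4.33 and 4.17 in shPRMT9. Of 26 further nucleotide synthesis genes, 21 were lower and 2 higher in Molm13, with a median of -0.33, and 8 were lower and 4 higher in THP1, again nearer to them, with a median of -0.08.

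Genes of division and of E2F control moved downward in both lines. All 8 mitotic and proliferation genes (MKI67, TOP2A, CCNA2, CCNB1, CDK1, AURKB, PLK1 and BUB1) were called lower in Molm13, against 33.5% of all genes tested, with a median of -0.72. In THP1, 7 of them were called lower, against 18.6% of all genes tested, with a median of -0.18. All 5 E2F genes listed were called lower in both lines, against the same shares, with medians of -1.34 and -0.37. E2F2, an activator of S-phase genes, stood at 3.39 and 3.53 in shCtrl and 1.09 and 1.20 in shPRMT9 in Molm13 and fell by 1.59 ± 0.10 (adjusted P = 3.3e-18). In THP1, E2F3, another activator, stood at 11.1 and 11.3 in shCtrl and 6.74 and 7.25 in shPRMT9 and fell by 0.68 ± 0.056 (adjusted P = 6.78e-11), and E2F7, a repressor of the family, stood at 7.92 and 8.08 in shCtrl and 6.13 and 5.85 in shPRMT9 and fell by 0.42 ± 0.055 (adjusted P = 5.68e-07). Their part in the change of the members was not tested.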

How the data were processed

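The members and gene lists were chosen with earlier results of these data known. The authors deposited 1 table of raw counts for each line, with whole reads summed by gene and no scaling. Per the submitters' processing notes the reads were aligned to hg38 with TopHat2 2.0.8 and counted with HTSeq 0.11.2, and edgeR 3.30.3 was used. The annotation and strand setting are not given in the sources used here. Exon lengths came from the Molm13 table.

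Each line was fitted separately in R 4.3.3 with edgeR 4.0.16: filterByExpr, TMM, and the quasi-likelihood test of shPRMT9 against shCtrl, with Benjamini-Hochberg adjustment over all genes tested. A fit of all 8 libraries over the 57722 shared genes tested the difference between lines. The size of each log2 fold change over the root of its F value gave the standard error. The upper fold limit of the study was read as above 1.5 and the lower as below 1/1.5, with its printed 0.67 as an alternative. RPKM uses TMM-scaled library totals.

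Alternatives used limma 3.58.1 (voom), DESeq2 1.42.0, other scalings, filters and limits, the replicate number as a block, and leaving out each library. Corrections for exon length with GC content, a crossed pairing and added pseudogene counts were chosen after seeing the data. All 49 members are accounted for. Values per library are given for the 8 largest called changes per line, the 5 smallest adjusted P of the difference, PCNA, MCM2 to MCM7, and the highest and lowest member by mean RPKM of each role. Other genes named are PRMT9 and the 3 most changed of the lists beside the members in each line, of which 1 is not reported here. Genes that overlap a member are limits on its counts, and not all are named above. Others include TPRA1 at MCM2, with 10.8% of its counts in Molm13 and 19.5% in THP1 and log2 fold changes of -0.0025 and 0.30. SMYD4 at RPA1 held 10.9% and 13.9% of its counts. Since nothing says that libraries of a group came from separate cultures, P values measure the spread between these libraries, which may be technical. Chi-square per gene between libraries of a group was 1.35 to 2.16, where sampling alone gives about 1.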

Additional observations from a re-analysis of the deposited data

Results flagged for a closer look

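The change after PRMT9 knockdown differed between the lines for 44 of the 49 members by the test of the difference itself (log2 fold change, THP1 minus Molm13, in the fit of all 8 libraries). Of the origin recognition genes, ORC1, ORC5 and ORC6 differed by 0.88, 0.46 and 1.37, and ORC4 by -0.57, the one negative value. Of the licensing genes, CDC6 differed by 1.21 and GMNN by 0.92. The helicase core genes MCM2, MCM3, MCM4, MCM5, MCM6 and MCM7 differed by 0.89, 1.26, 1.07, 0.92, 1.11 and 0.97. Among firing factors, MCM10 and CDC45 differed by 1.64 and 1.37, GINS1, GINS2, GINS3 and GINS4 by 0.99, 1.26, 0.63 and 0.91, and CDC7 and DBF4 by 1.02 and 0.78.

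Among the polymerases, POLA1, POLA2, PRIM1 and PRIM2 differed by 0.91, 1.34, 0.50 and 0.29, and POLD1, POLD3, POLE and POLE2 by 0.48, 0.76, 0.56 and 1.20. PCNA differed by 1.01, and RFC1, RFC2, RFC3, RFC4 and RFC5 by 0.18, 0.49, 0.83, 0.88 and 0.67. FEN1 and LIG1 differed by 1.03 and 0.37, and RPA1, RPA2 and RPA3 by 0.38, 0.16 and 0.25. Of the nucleotide synthesis genes, RRM1, RRM2, TYMS, TK1 and DUT differed by 0.48, 0.68, 0.88, 0.57 and 0.36. The adjusted P of RPA2 (0.0453) and RPA3 (0.0432) lay nearest the threshold, and with PRIM2 and RFC1 these were the 4 whose call was lost under at least 1 of 17 alternatives. The calls of RPA2 and RPA3 were each lost in 13 of the 17, that of RFC1 in 7 and that of PRIM2 in 2. By DESeq2 the adjusted P was 0.283 for RPA2 and 0.26 for RPA3.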

How the results depend on the processing

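Of the 44 lower calls in Molm13, 43 held in all 15 alternatives, of the 17 lower and 10 higher calls in THP1, 11 and 7 did, and of the 44 differences between lines, 40 held in all 17. The direct test called 39 differences upward and 1 downward by DESeq2, which called 43 members lower and 2 higher in Molm13 and 12 lower and 8 higher in THP1. In THP1, 20 members were lower and 10 higher with the exon length correction, and 24 and 9 with exon length and GC correction. Some members not called in THP1 gained a call. RPA3 was lower with library size alone and with upper-quartile normalization, and MCM7 was higher by limma-voom and in the common fit of both lines. MCM2 was also higher in that common fit, and CDC6, RRM1 and RPA3 were lower with the exon length correction. With exon length and GC correction CDC6, RRM1 and RPA3 were lower again, as were MCM3, PCNA, LIG1 and RRM2. The number of THP1 members past the limits on size downward, 0 at a fold below 1/1.5, was 1 (DCK) at the lower limit of 0.67 printed by the study, an alternative added after the data were seen, and 0 at 0.67 in the common fit of both lines and without THP1 shCtrl 1 or THP1 shPRMT9 2. At 1/1.5 it was 1 with library size alone, with upper-quartile normalization, without the filter on low counts and with the exon length correction, and 2 with exon length and GC correction. Leaving out one library gave 0 to 1, the 1 coming without THP1 shCtrl 2 or THP1 shPRMT9 1. In Molm13 the number of members lower past a 2-fold limit was 15, and the share of all genes at that limit is not given here. The THP1 median log2 fold change was -0.076 with library size alone, -0.071 with upper-quartile normalization, -0.088 with the exon length correction and -0.099 with exon length and GC correction. The Molm13 median was -0.677 with upper-quartile normalization, -0.816 and -0.844 with the same 2 corrections, and -0.746 to -0.696 when leaving out one library. Under exon length and GC correction, CDT1 in Molm13 reversed to -0.24 and the POLD2 difference reversed to 0.15. The cause of these shifts was not tested.

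With the replicate block, 44 members were lower and 2 higher in Molm13, 14 lower and 10 higher in THP1, and the difference was called for 41 upward and 1 downward. The deviations of same-numbered libraries correlated at -0.044 in Molm13 and -0.177 in THP1, and no label says what the number marks, so it was not taken as a pairing. With crossed pairing the counts were 44 lower and 2 higher in Molm13 and 17 lower and 12 higher in THP1.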
